A study of Mus musculus with 46 samples.

Results

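The genes described here encode receptor kinases (Grk2, Grk5, Grk6), the beta-arrestins (Arrb1, Arrb2) and the stimulatory G protein alpha subunit (Gnas). They are 6 of 17514 genes in the count table of the orchidectomy experiment and 6 of 16987 in that of the androgen implant experiment. Grk2 was chosen by its difference between Actn3 knockout (KO) and wild-type (WT) mice after sham surgery in these same libraries, and the other members for their role beside it. The KO against WT comparison in sham mice is therefore given for the members as a description, with no test, and the remaining comparisons carry the tests. The members and the gene lists used below were also chosen with earlier results of these data known. Their p values in the other comparisons, those of Arrb1 among them, may therefore not be free of that choice. For Grk2, ORX against sham in either genotype and the interaction of genotype and ORX reuse the sham libraries it was selected on, so their p values are not free of that selection.

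RNA from whole muscle of C57BL6 mice, WT or lacking alpha-actinin-3, was sequenced in 2 experiments. In the orchidectomy experiment, male mice aged 8 to 10 weeks had their testes removed (ORX) or sham surgery, and the gastrocnemius was taken 12 weeks later. There were 6 sham and 6 ORX libraries from WT mice, with 6 sham and 5 ORX libraries from KO mice, and the labels list a further KO-ORX mouse that has no counts. In the implant experiment, female mice aged 4 to 5 weeks received a silastic implant that was empty or held 10 mg of dihydrotestosterone (DHT), and the spinalis was taken 6 weeks later. Each genotype had 5 mice with empty implants and 6 with DHT. Groups are written as genotype and treatment, such as KO-ORX. Sex, muscle, age and manipulation all differ between the experiments, and each count table was normalised separately.

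Total counts assigned to genes ran from 26653932 to 55369921 per library over 45 libraries. Group medians in the orchidectomy experiment were 4.71e+07 in WT-sham, 4.56e+07 in WT-ORX, 3.43e+07 in KO-sham and 4.16e+07 in KO-ORX. In the implant experiment they were 4.70e+07 in WT-empty, 5.20e+07 in WT-DHT, 4.41e+07 in KO-empty and 4.42e+07 in KO-DHT. Every KO-sham library (29511438 to 37486666 counts) was smaller than every WT-sham library (43408015 to 50273747), so depth and genotype ran together in that pair of groups.

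G protein-coupled receptor kinases phosphorylate receptors that have bound their agonist, among them the beta-adrenergic receptors. Beta-arrestins bind the phosphorylated receptor, uncouple it from its G protein and carry it towards endocytosis. The protein encoded by Gnas links the beta-adrenergic receptors to adenylyl cyclase, cAMP and protein kinase A, a route through which catecholamines act on muscle growth and metabolism.

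Genotype labels were checked with Actn3 (ENSMUSG00000006457), counted 222975 to 522718 times in each WT library and 1051 to 3913 times in each KO library. On the scale of log2 CPM (counts scaled to library size) the WT libraries lay at 12.55 to 13.34 and the KO libraries at 5.10 to 6.38, and no label was contradicted. All 8 skeletal muscle marker genes were listed in both tables, with Myh4 the most abundant. Their summed abundance had group medians of 7.3e+04 to 8.7e+04 CPM in gastrocnemius and 1.13e+05 to 1.36e+05 CPM in spinalis. Markers of endothelium, smooth muscle and pericytes, fibroblasts, adipocytes, macrophages, Schwann cells, satellite cells and erythroid cells were also counted, and 2 of 5 T and B cell markers were listed. Counts from whole muscle cannot tell fewer cells from less RNA per cell.

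A pair of WT libraries stood apart in Grk2, 7KR from WT-empty at 6.44 log2 CPM (3514 counts) and 8KR from WT-DHT at 6.43 (4407 counts). The other 9 WT libraries of that experiment lay at 5.29 to 5.55 and the 11 KO libraries at 6.68 to 7.07. Actn3 in 7KR (13.28) and 8KR (12.91) lay within the 12.59 to 13.34 of the other WT libraries. Apart from Actn3 and Grk2, 155 genes were called in the same direction in all 4 KO against WT comparisons. Both libraries lay beyond the other 9 WT libraries towards KO for 0 of these 155, where the 29 other pairs of a WT-empty and a WT-DHT library did so for 0 to 4 (median 0). Of 90 further genes within 1 Mb of Actn3, both lay past the other WT libraries on the same side for 1, against 0 to 12 (median 2) for the other pairs. For Grk2, Gnas and Arrb1, the main results from the implant experiment are given with both libraries and, as an alternative chosen after seeing the data, without them. No member gained or lost a call when both were left out.

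Across the 10 comparisons, the members passing the threshold were Grk2 in the KO against WT comparisons and Arrb1 after DHT in WT. Beside each count by edgeR stands the share of all genes that edgeR called. Counts at unadjusted p < 0.05, by limma-voom and by DESeq2 have no such share beside them. ORX against sham in WT called 0 of 6 members by edgeR, with 0 at unadjusted p < 0.05, 0 by limma-voom and 0 by DESeq2, where 5.45% of all genes were called. In KO, edgeR called 0 of 6 after ORX, with 1 (Grk2) at unadjusted p < 0.05, 0 by limma-voom and 1 by DESeq2, against 5.57% of all genes. KO against WT called 1 of 6 after ORX (3.8% of all genes), 1 of 6 with empty implants (4.25%) and 1 of 6 with DHT (11.6%), in each case Grk2. In sham mice, where Grk2 had been selected on that difference, 1 of 6 lay past the threshold, and 5.3% of all genes did. The interaction of genotype and ORX called 0 of 6 by edgeR, with 1 at unadjusted p < 0.05, 0 by limma-voom and 0 by DESeq2, against 0.0228% of all genes. Among all 17514 genes, edgeR called 4 for that interaction, limma-voom 10 and DESeq2 120. DHT against empty called 1 of 6 in WT, Arrb1, against 11.3%. The same comparison in KO called 0 of 6 by edgeR, with 2 (Gnas and Arrb1) at unadjusted p < 0.05, 0 by limma-voom and 0 by DESeq2, against 4.62%. The interaction of genotype and DHT called 0 of 6 by edgeR, with 2 (Gnas and Arrb1) at unadjusted p < 0.05, 0 by limma-voom and 0 by DESeq2, against 3.24%.

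**Figure D1:**
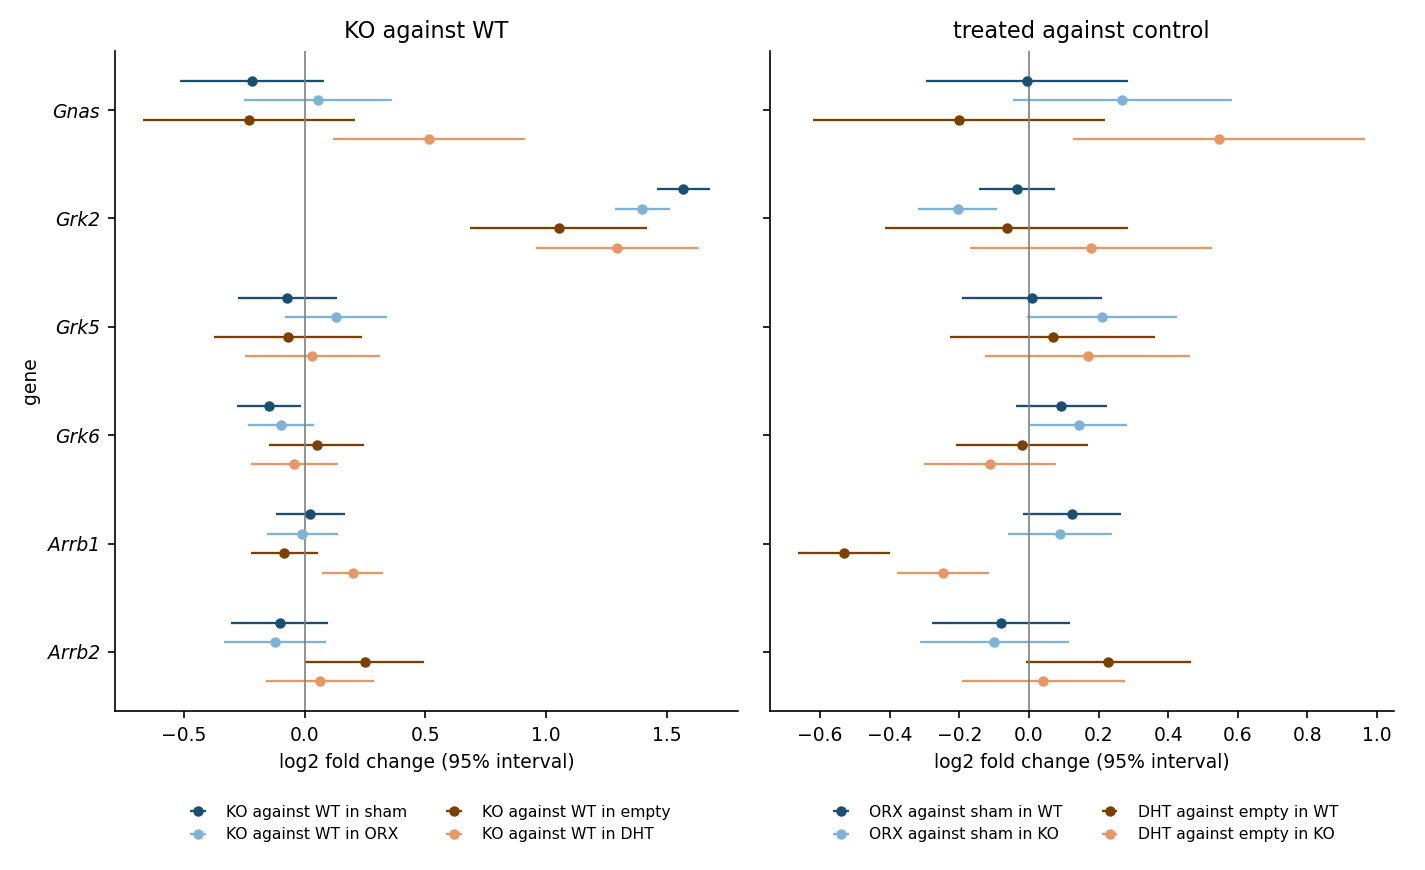
Log2 fold changes of the 6 members with 95% intervals, KO against WT in one panel and treated against control in the other. Grk2 lies between 1.05 and 1.57 in the genotype comparisons, and Arrb1 has its lowest value, -0.53, for DHT in WT mice.

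Among the receptors, Adrb1 was listed in neither table. Adrb3, a gene of adipocytes, had 2 to 135 counts in gastrocnemius and 70 to 623 in spinalis, and no comparison called it. Adra1a after DHT in WT had a log2 fold change of -0.84 (q 0.00432), and this call was lost when 35KR, 49KR, 15KR, 8KR or 39KR was left out singly, and without both 7KR and 8KR.

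Gnas (ENSMUSG00000027523) was counted 52 to 190 times per gastrocnemius library and 119 to 307 times per spinalis library, or 1.00 to 1.92 and 1.25 to 2.66 log2 CPM. Per exon length it reached 0.242 CPM per kb in WT-sham, rank 9 of 13 G protein alpha subunits, of which Gnai3 was the highest at 10.9. Gnas exons of 11186 bases overlap 1469 bases of Gm20721 and 988 of Nespas on the opposite strand, neither of which was listed, and the strand setting of the counting is not stated. From lowest to highest, group means in spinalis were 1.71 in KO-empty, 1.72 in WT-DHT, 1.88 in WT-empty and 2.22 in KO-DHT, and groups adjacent in this order differed by less than the larger SD. DHT in KO gave a log2 fold change of 0.55 (SE 0.214, q 0.106) and KO against WT with DHT 0.52 (SE 0.204, q 0.082), comparisons that share the KO-DHT mice. The 95% interval of the latter ran from 0.12 to 0.91. Without 7KR and 8KR these values were 0.54 (q 0.137) and 0.51 (q 0.141). The interaction of genotype and DHT was 0.75 (SE 0.302, q 0.221), or 0.72 (q 0.359) without them.

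Grk2 (ENSMUSG00000024858) was the most abundant receptor kinase per exon length, at 9.11 ± 0.549 CPM per kb (SD, n = 6) in WT-sham, ahead of Grk6 at 3.43, Grk3 at 1.36, Grk5 at 1.09 and Grk4 at 0.59. In gastrocnemius its lowest, median and highest log2 CPM were 5.22, 5.36 and 5.45 in WT-sham and 5.19, 5.33 and 5.45 in WT-ORX. KO-sham mice lay at 6.73, 6.94 and 7.08, and the KO-ORX mice at 6.71, 6.68, 6.83, 6.66 and 6.69. Every KO mouse was above every WT mouse, with no overlap. The log2 difference between KO and WT was 1.57 in sham mice (SE 0.0568, not tested). After ORX it was 1.40 (SE 0.0585, q 3.62e-15), a fold of 2.64, with 5 of 5 KO mice above every WT mouse. From lowest to highest the group means ran WT-ORX 5.31, WT-sham 5.35, KO-ORX 6.71 and KO-sham 6.92, and of adjacent groups the WT pair differed by less than its spread.

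In spinalis the WT-empty mice gave Grk2 at 5.43, 5.48, 6.44 (7KR), 5.39 and 5.55 log2 CPM, and WT-DHT mice 5.29, 5.46 and 6.43 as lowest, median and highest, the last being 8KR. The KO-empty mice gave 6.68, 6.80, 6.77, 6.69 and 6.90, and KO-DHT mice 6.83, 6.94 and 7.07. All KO mice again lay above all WT mice, 7KR and 8KR included. KO against WT with empty implants was 1.05 (SE 0.187, q 0.000724), with 5 of 5 KO mice above every WT mouse. Without 7KR and 8KR it was 1.31 (SE 0.0687, q 3.6e-11). With DHT the difference was 1.30 (SE 0.172, q 5.42e-06), with 6 of 6 KO mice above every WT mouse, and without 7KR and 8KR it was 1.52 (SE 0.0623, q 1.09e-13). Group means were 5.60 in WT-DHT, 5.66 in WT-empty, 6.77 in KO-empty and 6.95 in KO-DHT, and the WT pair differed by less than its spread.

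**Figure D2:**
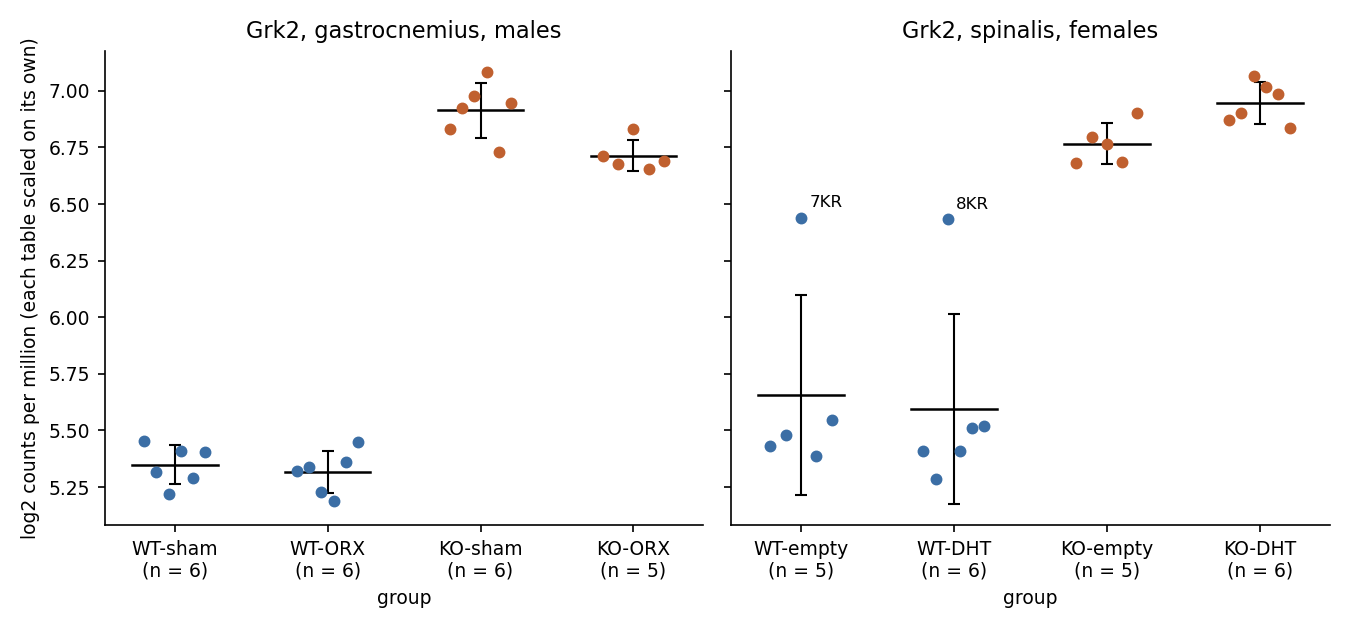
Log2 CPM of Grk2 in each mouse of the 8 groups, with the mean and SD of each group; 7KR and 8KR are labelled. All KO mice lie at 6.66 or above and all WT mice at 6.44 or below.

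The androgen comparisons of Grk2 gave smaller values than the genotype comparisons. ORX against sham in WT was -0.03 (q 0.798). In KO it was -0.20 (SE 0.058, q 0.0219), not called by edgeR, with 5 of 5 KO-ORX mice below the KO-sham mean and 4 below every KO-sham mouse. DESeq2 gave -0.22 (q 0.00613), past the threshold, as did edgeR without KO-sham replicate 5 (-0.24, q 0.00469). The KO-sham libraries were part of the difference by which Grk2 was chosen for being high there, which favours a lower value after ORX, so these values are no independent test. The interaction with genotype was -0.17 (q 0.497). DHT against empty was -0.06 in WT (q 0.861) and 0.18 in KO (q 0.584), and the interaction was 0.24 (q 0.714). Without 7KR and 8KR these were -0.03 (q 0.807), 0.17 (q 0.0706) and 0.21 (q 0.309). Neither DHT value was called with or without those libraries.

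Grk2 lies on chromosome 19, 0.575 Mb from Actn3 in the GRCm38 annotation, with 16 listed genes between them. Whether that position bears on the Grk2 difference was not tested. Within 1 Mb of Actn3, leaving out Actn3 and Grk2, KO against WT called 1 of 91 genes in sham (1.1%, against 5.3% of all genes). After ORX it called 4 of 91 (4.4% against 3.8%), with empty implants 2 of 90 (2.22% against 4.25%) and with DHT 7 of 90 (7.78% against 11.6%). All 7 called with DHT were higher in KO, and all 4 called after ORX were lower. Of all genes called, 872 were higher in KO and 1106 lower with DHT, and 188 were higher and 478 lower after ORX. The 4 neighbours called after ORX included Drap1 (-0.31), Gm31166 (-1.01) and 4930481A15Rik (-0.62), named after their values were seen. The shares moved with the fit and the window. By DESeq2 the sham count was 5 of 91 (5.49% against 7.34%). After ORX it was 1 of 91 without KO-ORX replicate 1 (1.1% against 2.83%), without KO-ORX replicate 4 (1.1% against 2.9%) and with only the groups compared (1.1% against 2.7%). With DHT it was 13 of 90 under library-size scaling (14.4% against 11.7%). In windows of 2, 5 and 10 Mb the share after ORX was 3% to 3.19%, below the 3.8% of all genes.

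Pcx, the gene called within 1 Mb in sham, had a log2 fold change of -0.43 (q 0.00391) there and of -0.07 after ORX. That call was lost without KO-sham replicate 3, without KO-sham replicate 6 or without WT-sham replicate 4. The largest q without either of the last 2 was 0.0153. With empty implants the called genes were Gm21992 (-1.26, q 0.0033) and Rce1 (-0.72, q 0.00453). Gm21992 was not called when 4KR, 49KR or 62KR was left out, nor Rce1 when 7KR, 35KR, 49KR, 17KR or 61KR was. Gm21992 also lost its call by limma-voom (q 0.0101) and with only the groups compared (q 0.0278), and Rce1 with only the groups compared (q 0.019) and without both 7KR and 8KR (q 0.0158).

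Genes whose log2 CPM followed Grk2 most closely included Mipep, Ndufs1, Egf and Btbd1, by Pearson's r over 23 gastrocnemius and 22 spinalis libraries. Mipep had r of 0.94 and 0.84. The most opposite were Actn3, Pla2g7, Ybx3, Hsd17b7 and Gm38560, and Actn3 had r of -0.99 and -0.90. The libraries fall into separate genotype clusters, so r over both genotypes carries the genotype difference. Within WT libraries r for Mipep was 0.13 in gastrocnemius and 0.05 in spinalis, and within KO libraries 0.46 and 0.62. Within KO, Ndufs1 gave 0.86 and 0.84, Egf -0.65 and -0.11, and Btbd1 0.65 and -0.21. Actn3 gave 0.01 and 0.29 within WT, and -0.10 and -0.12 within KO. Of the other opposite genes, Pla2g7 gave 0.82 and 0.19 within KO and Ybx3 0.67 and 0.40, running with Grk2 there.

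Of the other kinases, Grk5 ranged from 2.45 to 3.29 log2 CPM (163 to 495 counts) in gastrocnemius and from 2.36 to 3.19 in spinalis. Grk6 ranged from 3.58 to 4.13 (349 to 848 counts) and from 3.50 to 4.09. Neither was called in any comparison tested, and groups adjacent in mean differed by less than the larger SD for both. The largest tested Grk5 value was 0.21 for ORX in KO (95% interval -0.00 to 0.43, q 0.24), and the largest for Grk6 was 0.14 in the same comparison (0.00 to 0.28, q 0.214).

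Grk3, a kinase outside the members that was named from the start, had a lowest, median and highest log2 CPM of 3.31, 3.58 and 3.74 in WT-sham and of 3.74, 4.02 and 4.28 in WT-ORX. It rose after ORX in WT by 0.45 (SE 0.101, q 0.00342), with 5 of 6 WT-ORX mice above every WT-sham mouse. The call was lost without WT-sham replicate 4 (0.41, q 0.0124) or WT-ORX replicate 5 (0.39, q 0.0125). In KO the ORX value was 0.07 and the interaction -0.38 (q 0.371). With implants, WT-empty mice gave 3.43, 3.67, 3.85, 3.93 and 3.75 and WT-DHT mice 2.93, 3.26 and 3.54, a log2 fold change of -0.50 (SE 0.123, q 0.00461) with 5 of 6 below every WT-empty mouse. That call was lost on leaving out 7KR (-0.47, q 0.0149), 35KR (-0.45, q 0.0192), 49KR (-0.50, q 0.0103), 15KR (-0.45, q 0.0143), 5KR (-0.44, q 0.0135) or 8KR (-0.49, q 0.0117), and without both 7KR and 8KR (-0.46, q 0.0323). In KO the DHT value was -0.20 (q 0.316) and the interaction 0.30 (q 0.45).

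Arrb1 (ENSMUSG00000018909) was the more abundant beta-arrestin per exon length, at 2.80 CPM per kb in WT-sham against 2.08 for Arrb2, and at 3.63 against 1.84 in WT-empty. In gastrocnemius its lowest, median and highest log2 CPM were 4.75, 4.98 and 5.16 in WT-sham, 4.94, 5.09 and 5.24 in WT-ORX, and 4.80, 4.99 and 5.23 in KO-sham. The KO-ORX mice gave 5.11, 4.94, 5.02, 5.05 and 5.25, and all 4 groups overlapped. ORX gave 0.12 in WT (q 0.332) and 0.09 in KO (q 0.513).

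In spinalis Arrb1 was 5.21, 5.20, 5.39, 5.40 and 5.49 in the WT-empty mice, and WT-DHT mice gave 4.67, 4.79 and 4.97. The KO-empty mice gave 5.43, 5.19, 5.24, 5.27 and 5.14, and KO-DHT mice 4.94, 5.01 and 5.07. In each genotype, every DHT mouse lay below every mouse with an empty implant. Arrb1 fell after DHT in WT by 0.53 log2 units (SE 0.0677, q 2.4e-06, fold 0.692), with 6 of 6 mice below every WT-empty mouse, and without 7KR and 8KR the value was -0.50 (q 6e-05). In KO it was -0.25 (SE 0.0677, q 0.0195), not called, although 6 of 6 KO-DHT mice lay below every KO-empty mouse, and without 7KR and 8KR it was -0.25 (q 0.0218). The interaction was 0.28 (SE 0.0959, q 0.124), or 0.25 (q 0.289) without them, so the difference between the genotypes in this effect was not called. Group means ran WT-DHT 4.81, KO-DHT 5.01, KO-empty 5.26 and WT-empty 5.34, and the last pair differed by less than its spread. KO against WT with DHT was 0.20 (SE 0.0649, q 0.0333), with 5 of 6 KO-DHT mice above every WT-DHT mouse, and without 7KR and 8KR it was 0.18 (q 0.0851). With empty implants it was -0.08 (q 0.522), or -0.07 (q 0.682) without them.

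**Figure D3:**
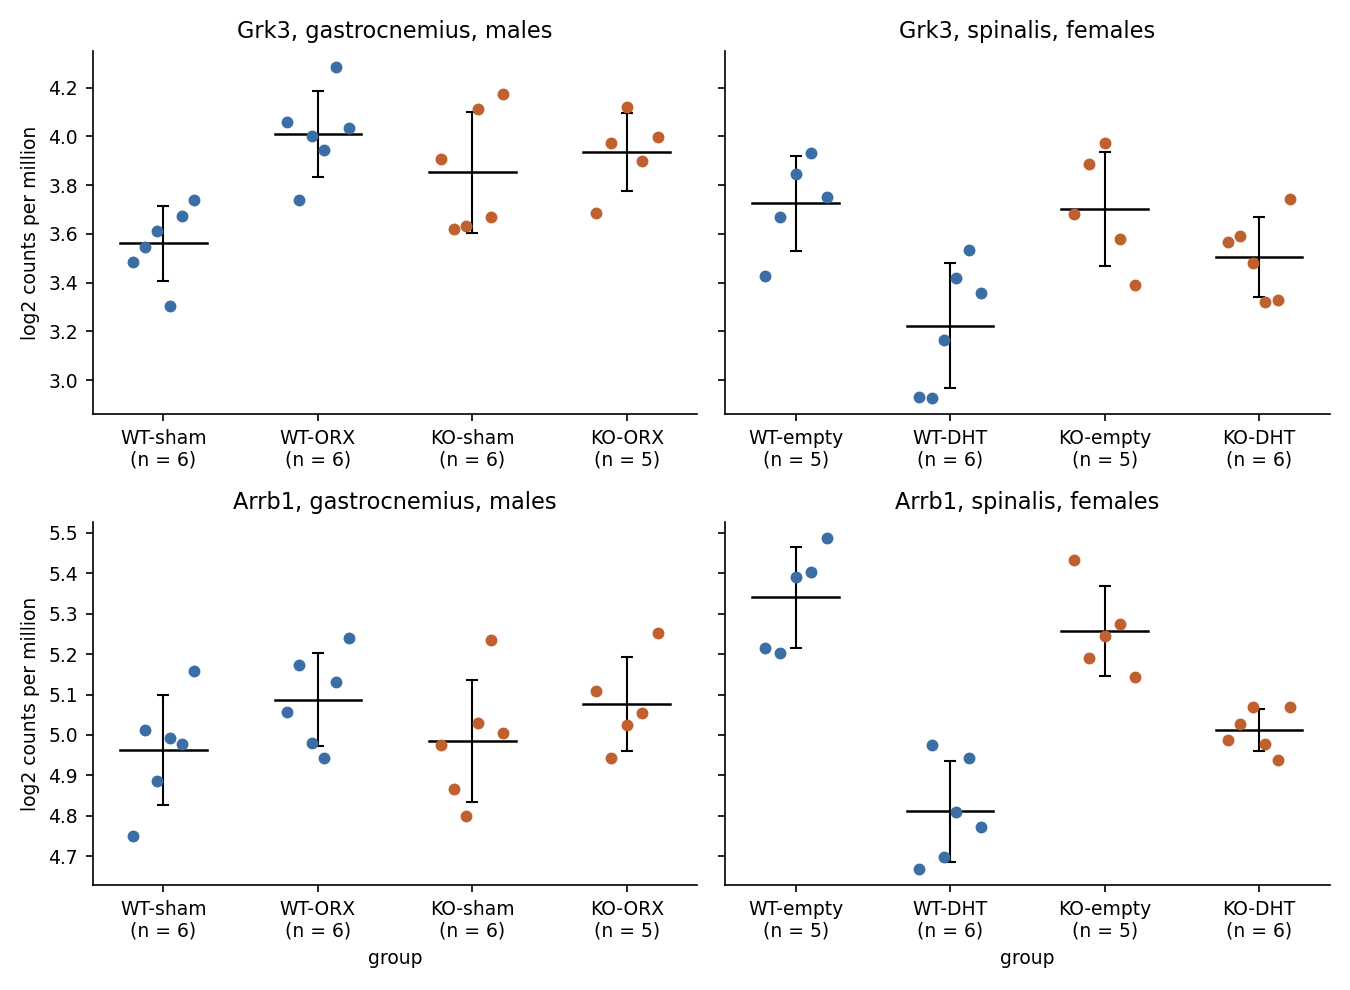
Log2 CPM of Grk3 and Arrb1 in each mouse of the 8 groups, with the mean and SD of each group. For Arrb1 all WT-DHT mice lie at 4.97 or below and all WT-empty mice at 5.20 or above.

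Arrb2 (ENSMUSG00000060216) ranged from 2.14 to 2.76 log2 CPM (131 to 336 counts) in gastrocnemius and reached 3.02 (166 to 376 counts) in spinalis. It was called in no comparison tested, and adjacent group means differed by less than the larger SD. Its largest values were 0.25 for KO against WT with empty implants (95% interval 0.00 to 0.50, q 0.236) and 0.23 for DHT in WT (-0.01 to 0.46, q 0.216).

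Around the members, 15 lists of 152 pathway genes covered receptors, kinases, arrestins, G proteins, cAMP synthesis and breakdown, protein kinase A and its anchors, CREB, RGS proteins and endocytosis. Of these genes 132 were tested in each experiment. ORX called 6 of them in WT (4.55%, against 5.45% of all genes) and 11 in KO (8.33% against 5.57%). DHT called 27 in WT (20.5% against 11.3%) and 10 in KO (7.58% against 4.62%). In WT 14 of these were higher and 13 lower, and in KO all 10 were higher. Of all genes called after DHT, 1126 were higher and 788 lower in WT, and 486 were higher and 298 lower in KO. The RGS proteins called in WT went both ways, with Rgs4 and Rgs5 higher and Rgs2, Rgs6 and Rgs7 lower. In sham, where Grk2 had been selected, KO against WT called 6 of the 131 genes other than Grk2 (4.58% against 5.3%). Of the same 131, KO against WT called 5 after ORX (3.82% against 3.8%) and 11 with empty implants (8.4% against 4.25%). With DHT it called 14 (10.7% against 11.6%). With Grk2 counted these were 6, 12 and 15 of 132. The interaction with ORX called 0 by edgeR (0% against 0.0228%), 0 by limma-voom and 1 by DESeq2. Among all genes these fits called 4, 10 and 120. At unadjusted p < 0.05 by edgeR there were 15 pathway genes, with no share of all genes to set beside them. The interaction with DHT called 2 (1.52% against 3.24%). These counts rest partly on single libraries. The calls that stayed when any 1 library was left out numbered 3 of 6 for ORX in WT, 2 of 11 for ORX in KO, 18 of 26 followed for DHT in WT and 3 of 10 for DHT in KO. For KO against WT they numbered 2 of 6 in sham, with Grk2 not counted. With Grk2 counted they numbered 5 of 6 after ORX, 6 of 12 with empty implants and 12 of 15 with DHT.

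The calls of the pathway genes named next stayed through every fit unless stated. Gnb5 fell after ORX in WT by 0.53 (q 6.79e-05), with 6 of 6 WT-ORX mice below every WT-sham mouse. It rose after DHT in WT by 0.84 (q 4.01e-07) and in KO by 0.69 (q 2.72e-05), with 6 of 6 mice above every empty-implant mouse in each genotype. In KO, Gnb5 after ORX was -0.51 (q 0.000382, 5 of 5 below), a call lost under library-size scaling (-0.40, q 0.0103). Prkacb fell after ORX in WT by 0.36 (q 1.55e-05, 6 of 6 below) and rose after DHT in WT by 0.43 (q 1.52e-06, 6 of 6 above). In KO, Prkacb after DHT was 0.24 (q 0.00521, 6 of 6 above). The latter call was lost under library-size scaling (0.21, q 0.0513), with only the groups compared (0.23, q 0.0167), and without 17KR (0.22, q 0.0175), 64KR (0.23, q 0.0154), 62KR (0.22, q 0.0114), 6KR (0.22, q 0.0149), 25KR (0.23, q 0.0135) or 63KR (0.23, q 0.0108). Prkacb was also lower in KO than in WT in sham by 0.24 (q 0.00194, 6 of 6 below) and with DHT by 0.34 (q 2.55e-05, 6 of 6 below). That difference was not called after ORX (-0.04, q 0.749) or with empty implants (-0.15, q 0.101). Within KO, Prkacb after ORX was -0.16 (q 0.0568), not called. Rgs4 rose after DHT in WT by 1.44 (q 3.31e-08) and in KO by 1.25 (q 1.35e-06), with 6 of 6 mice above in each. After ORX, Rgs4 was not called in WT (-0.01, q 0.988) or KO (0.07, q 0.755). In sham Crem was 0.34 (q 0.0111) in KO against WT, not called. Crem was higher in KO than in WT after ORX by 0.43 (q 0.00238, 5 of 5 above), with empty implants by 0.52 (q 0.00244, 5 of 5) and with DHT by 0.59 (q 9.7e-05, 6 of 6). Within KO, Crem after ORX was 0.39 (q 0.00465, 5 of 5 above). That call was lost without KO-sham replicate 1 (0.36, q 0.0124), 2 (0.39, q 0.0109), 4 (0.35, q 0.0137) or 6 (0.39, q 0.0106), or KO-ORX replicate 2 (0.36, q 0.0144) or 5 (0.39, q 0.0127). Pkig rose after DHT in WT by 0.69 (q 3.81e-07, 6 of 6), and its interaction of genotype and DHT was -0.58 (q 0.00233).

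Marker genes of muscle fibres and of other cell types also differed. After DHT in WT, Mb (0.79), Des (0.49), Tie1 (0.45), Pecam1 (0.33) and Dcn (0.54) were higher and Pdgfra (-0.44) was lower. After ORX in WT, Des (-0.31), Myh1 (-0.61), Mb (-0.50), Csf1r (-0.31) and Pdgfra (-0.23) were lower and Lum (0.59) was higher. In KO, ORX lowered Des, Mb and Myh1 and raised Lum, and DHT raised Tie1 and Dcn and lowered Lum. KO against WT called Acta1 as lower in sham (-0.37), after ORX (-0.50) and with DHT (-0.51), and no marker gene with empty implants. Cd3e was higher in KO in sham (1.28) and after ORX (1.33), Myf5 in sham (0.75) and with DHT (0.89), and Pax7 with DHT (1.24). Des was lower in KO in sham (-0.28) and after ORX (-0.25), Csf1r in sham (-0.29), and Ckm (-0.37) and C1qa (-0.48) after ORX. No list of smooth muscle, adipocyte, Schwann cell or erythroid markers held a called gene in any comparison. Single libraries were uneven all the same. Ucp1, an adipocyte marker listed only in spinalis, ran from 4 counts (8KR and 16KR) to 7072 (63KR). It had 9 counts in 7KR, and other mice were low too, such as 65KR with 12. The part of these cell types in the results for Grk2 and Arrb1 was not tested.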

How the data were processed

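The count tables were taken as deposited. Per the authors' notes, reads were aligned to GRCm39 with STAR 2.7.1b, handled with SAMtools 1.9 and Picard 2.20.2, and assigned to genes with featureCounts of Subread 2.0.0 to give raw counts. From there, each experiment was fitted separately by edgeR 4.0.16 (TMM, quasi-likelihood) in R 4.3.3, after a filter of 0.5 CPM in 2 or more libraries, which removed no gene. Genes were called at q <= 0.01, or q < 0.05 for interactions, where q is the Benjamini-Hochberg adjusted p over all genes tested. Log2 CPM used a prior count of 2. SE is the log2 fold change over the square root of F, and 95% intervals are normal. limma 3.58.1 (voom) and DESeq2 1.42.0 served as alternatives. Symbols, exon lengths and distances came from the GRCm38 annotation, which matched 17433 of 17514 and 16920 of 16987 identifiers. Members and lists were chosen with earlier results of these data known.

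Named genes include the members, Actn3, Grk3, Adrb1 and Adrb3. Added to these are up to 4 called genes per pathway list and comparison with the smallest p, up to 10 called genes within 1 Mb of Actn3, and the 5 most like and 5 most opposite to Grk2. Marker genes and any other gene named were chosen after their values were seen.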

Additional observations from a re-analysis of the deposited data

Results flagged for a closer look

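In each of 48 groups of member values, a library was marked when it lay far from the rest of its group. About 1 in 20 groups would be marked by chance, and 4 were found, in 3 members. Grk2 in WT-empty replicate 7KR was 6.4390 log2 CPM, with the next library of its group at 5.55. Grk2 in WT-DHT replicate 8KR was 6.4319, with the next at 5.52. Arrb2 in KO-empty replicate 61KR was 3.0181, with the next at 2.58. Gnas in KO-sham replicate 5 was 1.7772, with the next at 1.29. The cause was not tested for any of these libraries.

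Within the pathway lists, a pair of genes differed between genotypes in their response to DHT. The interaction was -0.4842 log2 units for Adcy6 (q 0.0317 by edgeR) and -0.5830 for Pkig (q 0.00233 by edgeR). Pkig was called in every alternative and in all 22 fits without 1 library. Adcy6 was called in 9 of 22 such fits and was not called under library-size scaling.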

How the results depend on the processing

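The Grk2 difference between KO and WT kept its direction in every alternative fit, and its call in each comparison tested. Over the alternatives it ran from 1.55 to 1.58 in sham, 1.40 to 1.44 after ORX, 1.05 to 1.31 with empty implants and 1.29 to 1.52 with DHT. Leaving out 1 library at a time gave 1.5341 (without KO-sham replicate 4) to 1.6034 (KO-sham replicate 5) in sham, and 1.3673 (KO-ORX replicate 3) to 1.4260 (WT-ORX replicate 6) after ORX. With empty implants it gave 0.9810 (35KR) to 1.3138 (7KR), and with DHT 1.2323 (5KR) to 1.5222 (8KR). The fit without both 7KR and 8KR was chosen after seeing the data. Arrb1 after DHT in WT was called in 8 of 8 alternatives and in 22 of 22 fits without 1 library. No called result reversed; some uncalled values changed sign.

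Replicate numbers in the orchidectomy labels did not mark pairs. Libraries of the same number had a median r of 0.007 over 33 pairs after group means were removed, and 7 of 23 correlated best with a library of their own number. With the replicate block as a term, Grk2 KO against WT was 1.41 after ORX (q 1.91e-12 by edgeR) and 1.57 in sham.

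Counts of genes called changed by more than 1.5 times in several fits. ORX in KO, 975 with all libraries, gave 485 with only the groups compared. It ran from 589 (without KO-ORX replicate 4; 606 without KO-ORX replicate 5) to 1116 (KO-sham replicate 5). The interaction with ORX, 4 genes, gave 10 by limma-voom and 120 by DESeq2, and from 2 (without KO-sham replicate 6 or WT-ORX replicate 4) to 38 (KO-ORX replicate 3). It gave 24 without WT-ORX replicate 2. DHT in KO, 784, gave 1216 by DESeq2 and 505 with only the groups compared, and 533 (without 61KR) to 870 (62KR). KO against WT with empty implants, 722, gave 290 with only the groups compared and 412 without both 7KR and 8KR. It ran from 450 (without 7KR; 453 without 64KR and 481 without 4KR) to 700 (5KR).

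Counts in the other comparisons stayed within 1.5 times. Members called stayed as reported but for ORX in KO, where 0 became 1 (Grk2) by DESeq2 and without KO-sham replicate 5.

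Pathway genes called for ORX in WT, 6 with all libraries, became 11 by DESeq2 and ran from 3 (without WT-sham replicate 4) to 7 (KO-ORX replicate 2). For ORX in KO, 11 became 3 with only the groups compared, and ran from 3 (without KO-sham replicate 2 or KO-ORX replicate 5) to 13 (KO-sham replicate 5). KO against WT in sham, 7, became 12 by DESeq2, and ran from 4 (without KO-sham replicates 3 or 5 or WT-sham replicate 4) to 9 (KO-sham replicate 4). After ORX, 6 became 11 by DESeq2 (5.25% against 3.8%). The interaction with ORX, 0, became 1 by DESeq2.

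Pathway genes called for DHT in KO, 10 with all libraries, became 6 with only the groups compared, and ran from 4 (without 17KR) to 13 (62KR). KO against WT with empty implants, 12, became 5 with only the groups compared and 7 without both 7KR and 8KR, and ran from 6 (without 4KR; 7 without 64KR) to 12. The interaction with DHT, 2, became 4 under library-size scaling and 5 by DESeq2. It was 1 in 9 of 22 fits (without 14KR, 4KR, 49KR, 15KR, 8KR, 17KR, 64KR, 16KR or 25KR) and 4 without 7KR or 50KR.

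Within 1 Mb of Actn3, and counting Actn3 and Grk2, KO against WT in sham called 3 genes. This became 5 with RLE size factors, 7 by DESeq2 and 5 with only the groups compared. It ran from 2 (without KO-sham replicate 3) to 6 (KO-sham replicate 5), with 5 without KO-ORX replicate 1 or WT-sham replicates 1 or 6. After ORX, 6 became 3 with only the groups compared and 3 with the replicate block, and ran from 3 (without KO-ORX replicates 1 or 4) to 6. With empty implants, 4 became 2 with only the groups compared, and ran from 2 (without 49KR) to 5 (35KR). With DHT, 9 became 15 under library-size scaling and ran from 8 to 10. Fits with only the groups compared hold fewer libraries. The cause of other changes was not tested.

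Among members, the lowest counts in a library were 52 for Gnas, 131 for Arrb2 and 163 for Grk5. Limits from depth were not tested.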
